A study of Homo sapiens with 24 samples.

Results

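Mitochondrial ribosomal proteins are encoded in the nucleus, made in the cytosol and imported into mitochondria, where they assemble with rRNAs transcribed from mitochondrial DNA into a ribosome that makes only core subunits of the respiratory chain and of ATP synthase. Many have a bacterial counterpart, and others were added to the ribosome in mitochondria. Activated T cells are known to increase mitochondrial protein synthesis, and the family is commonly described as depending on the transcription factors NRF1, GABPA and YY1. The genes described here are those whose symbol is MRPL or MRPS followed by a number and, in some, a letter from A to C; symbols of pseudogenes were left out. The rule found 78 genes of the 58780 listed with TPA and the same 78 of the 13025 listed with DMSO, and all 78 were tested and adjusted in both. Of the 78, 51 encode proteins of the large subunit, among them MRPS18A and MRPS30 in spite of their symbols, 26 encode proteins of the small subunit, and MRPS36 encodes a protein since assigned to the alpha-ketoglutarate dehydrogenase complex.

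The values come from RNA sequencing of 2 cutaneous T cell lymphoma lines, MyLa (mycosis fungoides) and HuT 78 (Sézary syndrome). Each line carried an shRNA against PRKCQ (protein kinase C theta, which relays T cell receptor signals) or a non-targeting control (NTC) and was treated for 24 h with the phorbol ester TPA at 10 ng/ml, which activates protein kinase C, or with its vehicle DMSO. There were 3 libraries in each of the 8 groups: MyLa shPRKCQ TPA, HuT 78 shPRKCQ TPA, MyLa NTC TPA, HuT 78 NTC TPA, and the same 4 with DMSO. For the knockdown, cells were held in doxycycline at 1 µg/ml for 72 h or longer before treatment; whether NTC cells received it is not given in the sources used here, so drug and hairpin cannot be told apart. The authors' deposited tables give the log2 fold change of each gene with raw and adjusted p-values for 6 shPRKCQ against 6 NTC libraries of both lines together, 1 table for each treatment. No value per library or per line was used, so expression levels, depth and the spread between libraries are unknown, and the labelled cell type could not be checked against levels of its markers. The tables do not state the direction; a negative value was read as lower in shPRKCQ cells because PRKCQ is at -2.08 in TPA and -2.11 in DMSO in the authors' deposited tables, or 23.7% and 23.1% of the NTC level.

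Promoter sequences are shown first for 4 members, because the letters recognised by GABPA and YY1, among its presumed regulators, are frequent in the family. For NRF1 the share was nearer that of genes in both tables. RefSeq windows on GRCh38.p14, running from 250 bases before to 50 bases after an annotated start, were found for 69 of the 78 genes, with 85 windows in all. The 4 were chosen among stretches before the start that hold no annotated exon, for holding 1 or more of these letters. Each is written 5′ to 3′ on the gene's own strand, and capitals mark matches to CCGGAAG (the ETS core bound by GABPA), AAGATGGC (YY1) or GCGCANGCG (NRF1), read on either strand.

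MRPL47, chr3:179604655-179604689, minus strand: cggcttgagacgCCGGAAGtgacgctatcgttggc

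MRPS34, chr16:1773156-1773206, minus strand: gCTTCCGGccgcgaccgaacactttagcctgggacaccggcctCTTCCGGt

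MRPL52, chr14:22829821-22829878, plus strand: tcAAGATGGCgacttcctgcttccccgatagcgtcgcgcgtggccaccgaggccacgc

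MRPL20, chr1:1407314-1407543, minus strand: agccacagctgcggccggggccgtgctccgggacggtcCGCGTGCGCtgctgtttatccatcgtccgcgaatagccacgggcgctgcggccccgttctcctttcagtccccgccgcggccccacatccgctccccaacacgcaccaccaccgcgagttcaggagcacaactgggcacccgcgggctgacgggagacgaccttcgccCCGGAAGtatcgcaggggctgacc

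The MRPL47 stretch lies between the starts of MRPL47 and of NDUFB5, a complex I subunit gene on the other strand, and carries 1 ETS match; the MRPS34 stretch, which faces EME2, carries 2. ETS letters were present in 38.8% of the 85 windows of the family, against 17.9% of the 13227 windows of genes in both tables and 10.3% of all 35116 windows. YY1 letters were present in 27.1% of the family's windows, against 5.29% of windows of genes in both tables and 2.89% of all. NRF1 letters were present in 17.6%, against 13.6% and 7.52%. At least 1 of these 3 motifs was found for 50 of the 69 genes, some of which have more than 1 window. The matching share over other genes was not computed, so this count has no background beside it. The E-box CACGTG, bound by MYC among others, was in 10.6% of the family's windows against 9.49% of windows of genes in both tables, and the GC box GGGCGG of SP1 in 60% against 66.3%. These are matches of letters on both strands, in which overlapping matches count once per window, and they do not show binding.

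**Figure D1:**
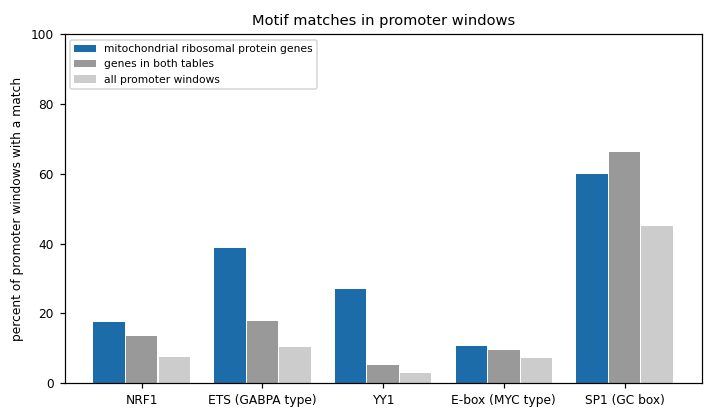
Share of promoter windows, in percent, with at least 1 match to each motif, for mitochondrial ribosomal protein genes (85 windows), genes in both tables (13227 windows) and all windows (35116). The YY1 and ETS bars of the family stand above both others (27.1% and 38.8%), while its GC box bar, at 60%, lies below that of genes in both tables.

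The knockdown called none of the 78 genes. In TPA 0 of 78 passed the authors' adjusted p of 0.05, where 0.113% of all 19417 genes with an adjusted p did, and in DMSO 0 of 78 passed, where 0.108% of 13007 did. At an unadjusted p under 0.05 the family again gave 0 of 78 in TPA, against 3.99% of all genes, and 0 of 78 in DMSO, against 3.04%. Under 0.1 it gave 2 genes in each treatment, or 2.56%, against 7.41% of all genes in TPA and 5.61% in DMSO. The lowest adjusted p of any member, by the authors' Benjamini-Hochberg adjustment, was 1.00 in TPA and 1.00 in DMSO.

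The fold changes were small as well as uncalled. In the authors' deposited tables the log2 fold changes of the family ran between -0.18 and 0.21 in TPA and between -0.17 and 0.22 in DMSO. An absolute log2 fold change of at least 0.2 was reached by 1 of 78 members in TPA, against 30.3% of all genes, and by 4 of 78 in DMSO, against 17.7%. The SD of the log2 fold changes over the members was 0.079 in TPA and 0.087 in DMSO, while the error of a single member, implied by its fold change and p-value, had a median of 0.15 in each. The SD over the members was thus below the median error of a member. Genes in general also spread less than their implied errors: the fold change over its error had a robust SD over all genes tested of 0.840 in TPA and 0.753 in DMSO, where errors of the right size and no change would give 1. The implied error of a member ran from 0.084 to 0.26 in TPA and from 0.086 to 0.29 in DMSO. Over all genes tested its median was 0.22 in TPA (19417 genes) and 0.17 in DMSO (13007 genes). The shares of all genes at 0.2 or more were not adjusted for this larger error, and the 2 backgrounds are unlike sets of genes.

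The same errors say how large a change the data leave room for. Approximate 95% intervals, taken from the implied errors and the normal distribution, lay within 0.5 of zero on the log2 scale, that is within a change of 1.41-fold in either direction, for 72 of 78 members in TPA and 66 of 78 in DMSO. For all 78 in both treatments they lay within 1, a 2-fold change. Only 9 members in each treatment had an interval within 0.25. The widest upper bound was that of MRPS28 in DMSO, at 0.69, and the lowest lower bounds were those of MRPL27 in TPA and MRPL1 in DMSO, both at -0.54. The p-values do not show that any member was the same in shPRKCQ and NTC cells, and true changes within these intervals remain possible. The intervals would be too narrow if the deposited fold changes were shrunken after testing, and too wide if the p-values are conservative.

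**Figure D2:**
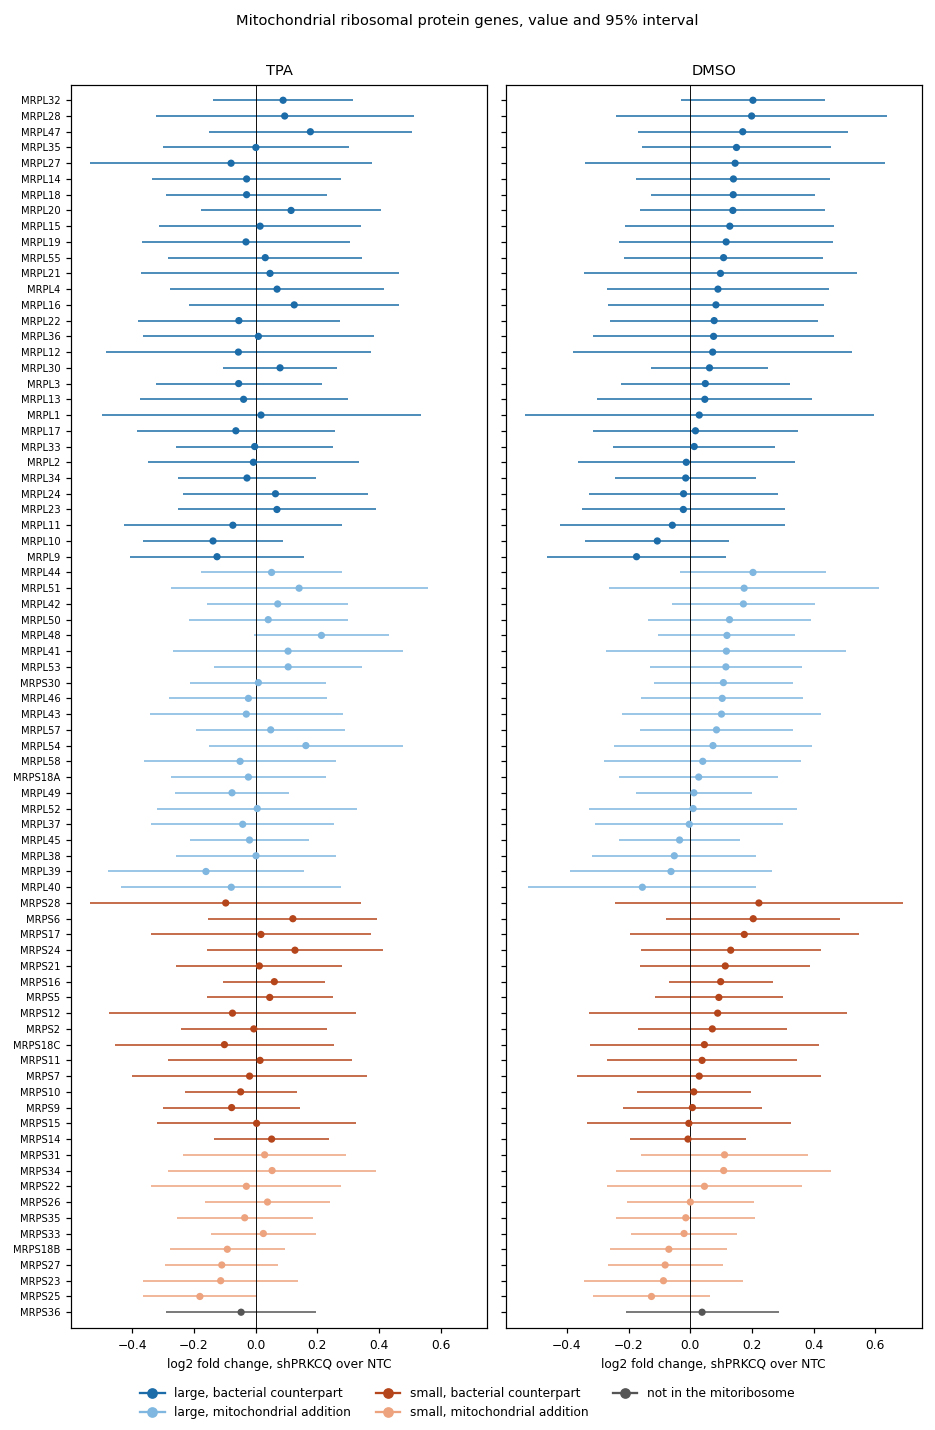
Log2 fold change, shPRKCQ over NTC, of the 78 genes in TPA (left) and DMSO (right), with approximate 95% intervals as lines; colours give the subunit and whether the protein was counted as a bacterial counterpart or a mitochondrial addition. Every interval crosses 0 in both panels, and in DMSO 58 of the 78 points lie right of 0, against 40 in TPA.

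Among large-subunit proteins with a bacterial counterpart (30 genes), the log2 fold changes had a median of -0.00091 in TPA, with 15 positive, and of 0.077 in DMSO, with 23 positive. MRPL32 (ENSG00000106591.3, chromosome 7, 42932200 to 42948958, plus strand, GRCh38), whose product is cut by the m-AAA protease before it joins the ribosome, had the lowest p-value of the family in DMSO. It was at 0.089 in TPA and 0.20 in DMSO in the authors' deposited tables (unadjusted p = 0.442 and 0.0867). In DMSO this is 1.15-fold the NTC level, with an interval from 0.98 to 1.35. MRPL9 (chromosome 1, 151759643 to 151763564, minus strand) and MRPL10, a protein of the stalk base, were below zero in both treatments. MRPL9 was in the authors' deposited tables at -0.12 in TPA and -0.17 in DMSO, and MRPL10 at -0.14 and -0.11. MRPL12, the stalk protein that has also been reported to bind the mitochondrial RNA polymerase, was at -0.056 in TPA and 0.073 in DMSO in the authors' deposited tables, with implied errors of 0.22 and 0.23. For MRPL47 the authors' deposited tables gave 0.18 in TPA and 0.17 in DMSO (unadjusted p = 0.291 in TPA and 0.327 in DMSO). Its bacterial counterpart lies at the exit of the peptide tunnel, as do those of MRPL22, MRPL23 and MRPL24. In the authors' deposited tables MRPL22 was at -0.054 in TPA and 0.078 in DMSO, MRPL23 at 0.069 and -0.022, and MRPL24 at 0.065 and -0.022, so that proteins of the same site lay on both sides of zero. MRPL14, at the face towards the small subunit, MRPL18, of the central protuberance, and MRPL35 were near zero in TPA and positive in DMSO. In the authors' deposited tables MRPL14 was at -0.029 in TPA and 0.14 in DMSO, MRPL18 at -0.029 and 0.14, and MRPL35 at 0.0010 and 0.15.

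The 21 proteins counted as mitochondrial additions to the large subunit gave a median log2 fold change of 0.0055 in TPA, with 12 positive, and of 0.085 in DMSO, with 16 positive. MRPL48 (ENSG00000175581.13, chromosome 11, 73787316 to 73865133, plus strand) had the lowest p-value of the family in TPA. It was at 0.21 in TPA and 0.12 in DMSO in the authors' deposited tables (unadjusted p = 0.0550 and 0.293), and the TPA value is 1.16-fold the NTC level with an interval from 0.997 to 1.35. MRPL44 (ENSG00000135900.3, chromosome 2, 223957404 to 223967714, plus strand), whose fold resembles RNase III and whose mutation is known to cause cardiomyopathy, was at 0.052 in TPA and 0.20 in DMSO in the authors' deposited tables (unadjusted p = 0.657 and 0.0903). MRPL42 was at 0.072 and 0.17, MRPL50 at 0.041 and 0.13, and MRPL54 at 0.16 and 0.074 in TPA and DMSO in the authors' deposited tables. MRPL39 was negative in both, at -0.16 in TPA and -0.062 in DMSO in the authors' deposited tables. MRPL41 was at 0.11 in TPA and 0.12 in DMSO, and MRPL45, which holds the ribosome to the inner membrane, at -0.020 and -0.034, in the authors' deposited tables. MRPL58, which was recruited from a release factor family and hydrolyses peptidyl-tRNA on stalled ribosomes, was at -0.050 in TPA and 0.041 in DMSO in the authors' deposited tables. MRPS30, a large-subunit protein, was at 0.0092 in TPA and 0.11 in DMSO in the authors' deposited tables.

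The 16 small-subunit proteins with a bacterial counterpart had a median log2 fold change of 0.0079 in TPA, with 9 positive, and of 0.080 in DMSO, with 14 positive. MRPS6 and MRPS16 had the lowest p-values of this class in DMSO, at 0.156 and 0.251 unadjusted. MRPS6 was in the authors' deposited tables at 0.12 in TPA and 0.20 in DMSO, and MRPS16, mutated in a combined respiratory chain deficiency, at 0.061 and 0.099. MRPS12, of the decoding centre, was at -0.075 in TPA and 0.089 in DMSO, and MRPS24 at 0.13 in both treatments, in the authors' deposited tables. MRPS28, the counterpart of a bacterial protein of the mRNA path, had the highest value of all members in DMSO and a negative one in TPA. It was at -0.097 in TPA and 0.22 in DMSO in the authors' deposited tables, with implied errors of 0.22 and 0.24 (unadjusted p = 0.666 and 0.350). Each error is thus larger than its value in size, and in TPA by far.

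The 10 mitochondrial additions of the small subunit were the class with a negative median in both treatments, -0.033 in TPA and -0.017 in DMSO, with 4 of 10 positive in each. MRPS25 (ENSG00000131368.7, chromosome 3, 15042460 to 15065335, minus strand) had the lowest value of all members in TPA, at -0.18, and was at -0.13 in DMSO in the authors' deposited tables (unadjusted p = 0.0557 and 0.192). The TPA value is 0.882 of the NTC level, with an interval from 0.776 to 1.00. For MRPS27, a pentatricopeptide repeat protein, the authors' deposited tables gave -0.11 in TPA and -0.081 in DMSO, and for MRPS23 -0.11 and -0.087. The class holds few genes, and its difference from the other classes was not tested. MRPS28 was moved out of it after the data were seen. With MRPS28 included, the DMSO median was -0.014 and the DMSO mean 0.0084 instead of -0.013. In that case 5 of 11 genes were positive in DMSO.

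The MRPS18 paralogs descend from 1 bacterial protein and do not share a place: MRPS18A is in the large subunit, and MRPS18B and MRPS18C hold different sites in the small one. MRPS18C was counted with the bacterial counterparts, and MRPS18A and MRPS18B, as further copies at other sites, with the mitochondrial additions of their subunits. MRPS18A was in the authors' deposited tables at -0.023 in TPA and 0.028 in DMSO, MRPS18B at -0.092 and -0.069, and MRPS18C at -0.10 and 0.046. The lowest unadjusted p of the paralogs was 0.334, for MRPS18B in TPA. MRPS36, outside the ribosome, was at -0.047 in TPA and 0.039 in DMSO in the authors' deposited tables.

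The knockdown effect with TPA was then set against that with DMSO. By the difference of the fold changes over their implied errors, taking the tables as independent, 0 of 78 members passed at an adjusted p of 0.05, where 0% of 13007 genes did, and 0 of 78 had an unadjusted p under 0.05, where 0.438% of all genes did. Errors of the right size and no change would put a share of 0.05 of all genes under that threshold. The test was thus conservative in these data, and its count of 0 says little about the family. The direction was more uneven than the size: the TPA value was below the DMSO value in 62 of 78 members, or 79.5%, against 52.5% of all genes. The median log2 fold change of the family was 0.0013 in TPA and 0.072 in DMSO, beside 0.011 and 0.0075 over all genes tested. The median difference, TPA minus DMSO, was -0.051, beside -0.0084 over all genes in both tables. Members above zero numbered 40 of 78 in TPA, or 51.3% against 53% of all genes, and 58 of 78 in DMSO, or 74.4% against 52.3%. Genes of a ribosome vary together, so members are not independent, and these counts were not tested.

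The lowest p-value of the difference belonged to MRPS28, at -0.32 ± 0.33 (implied error; unadjusted p = 0.329), with an interval from -0.96 to 0.32. The next were MRPL44 at -0.15 ± 0.17, MRPL18 at -0.17 ± 0.19 and MRPL14 at -0.17 ± 0.22 (implied errors; unadjusted p = 0.366, 0.375 and 0.451). MRPL32 followed at -0.11 and MRPL35 at -0.15. In each of these 6 genes the difference was smaller than its implied error. By sign, 34 members were positive in both treatments, 14 were negative in both, 24 were negative in TPA and positive in DMSO, and 6 were positive in TPA and negative in DMSO. The signs were thus alike in 48 of 78 members, or 61.5%, against 64.2% of the 13007 genes in both tables. Across the 78 members the log2 fold changes in TPA and DMSO correlated with r = 0.59 (Pearson) and rho = 0.53 (Spearman), beside 0.38 and 0.40 over the 13007 genes in both tables. No library is in both tables, whether their cultures were related is not given, and genes are not replicates.

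**Figure D3:**
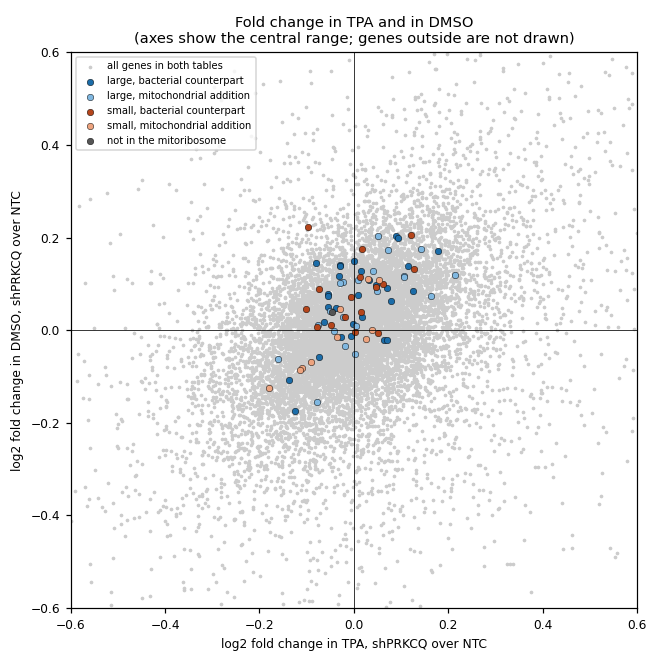
Log2 fold change, shPRKCQ over NTC, in TPA (x axis) and DMSO (y axis), for genes in both tables (grey) and the 78 mitochondrial ribosomal protein genes, coloured by class. The family lies near the centre, between -0.18 and 0.21 in TPA and between -0.17 and 0.22 in DMSO, with 24 members at upper left against 6 at lower right.

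The position of the genes was examined next. Members were spread over the genome, but 16 of 78 (20.5%) had the start of another tested gene on the opposite strand within 300 bases upstream, against 9.69% of the 11065 protein-coding genes in both tables. MRPL46 and MRPS11, members of different subunits, face each other with starts 34 bases apart. MRPL46 was in the authors' deposited tables at -0.023 in TPA and 0.10 in DMSO, and MRPS11 at 0.015 and 0.038. MRPL36 and MRPL47 face the complex I subunit genes NDUFS6 and NDUFB5, at 34 and 36 bases. NDUFS6 was in the authors' deposited tables at 0.12 in TPA and 0.16 in DMSO, beside MRPL36 at 0.0092 and 0.076, and NDUFB5 was at 0.0079 and 0.090. MRPL18 and TCP1, a subunit of the cytosolic chaperonin, start 63 bases apart, and TCP1 was at -0.066 in TPA and 0.16 in DMSO in the authors' deposited tables, close to the values of MRPL18. MRPL27 and the endonuclease gene EME1 start 6 bases apart, and EME1 was at -0.22 in TPA and 0.016 in DMSO in the authors' deposited tables, where MRPL27 was at -0.079 and 0.15. The lowest unadjusted p of a partner was 0.124, for LRRC46 beside MRPL10 in TPA.

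The fold changes were also set out by promoter letters. The 30 members with an ETS match had a median log2 fold change of 0.0089 in TPA and 0.079 in DMSO, and the 39 without had -0.0057 and 0.072. The 21 with a YY1 match had medians of 0.0015 in TPA and 0.078 in DMSO, and the 48 without had 0.0079 and 0.067. For NRF1 the medians were -0.024 in TPA and 0.054 in DMSO over 14 members with a match, and 0.0055 and 0.074 over 55 without. For the E-box the medians were -0.029 in TPA and 0.046 in DMSO over 9 members with a match, and 0.011 and 0.079 over 60 without. For the GC box they were 0.018 in TPA and 0.078 in DMSO over 42 members with a match, and -0.023 and 0.073 over 27 without. The gaps between these medians were not tested. Transcripts of the family are short, with a median length over its members of 1034 bases beside 1793 bases over 10983 genes. Length and log2 fold change had a Spearman rho over the 78 members of -0.087 in TPA and -0.17 in DMSO, and over all those genes of -0.056 and -0.049.

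The regulators gave no call. NRF1 was at -0.00073 in TPA and 0.055 in DMSO, GABPA at 0.094 and 0.15 and YY1 at -0.045 and 0.026 in the authors' deposited tables. For MYC the authors' deposited tables gave 0.030 in TPA and -0.11 in DMSO. The 9 tested factors and coactivators, GABPB1 (-0.16 in TPA) and SP1 (-0.068 in DMSO, both from the authors' deposited tables) included, had medians of 0.014 in TPA and 0.0085 in DMSO, with 5 of 9 positive in each.

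The rest of the mitochondrial translation pathway was described from lists. Mitoribosomal proteins with other symbols gave 0 calls among 5 tested genes, with medians of -0.040 in TPA and 0.037 in DMSO, and all 5 were lower in TPA than in DMSO. They are DAP3 at -0.083 and PTCD3 at -0.062 in TPA, GADD45GIP1 at 0.20 and AURKAIP1 at 0.079 in DMSO in the authors' deposited tables, and CHCHD1. Assembly factors gave 0 calls among 27, with medians of -0.0036 in TPA and 0.051 in DMSO. NGRN, needed for the large-subunit rRNA, was at 0.097 in TPA and 0.073 in DMSO in the authors' deposited tables. MTERF4, which brings a methyltransferase to the large subunit, was at 0.11 in TPA, and MTERF3 at 0.22 in DMSO, in the authors' deposited tables. Translation factors gave 0 calls among 17, with medians of 0.013 in TPA and 0.024 in DMSO. MTFMT, which formylates the initiator methionyl-tRNA, was at 0.17 in TPA and 0.20 in DMSO in the authors' deposited tables. OXA1L, the insertase for new membrane proteins, was at -0.079 in TPA, and the initiation factor MTIF3 at 0.14 in DMSO, in the authors' deposited tables.

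Mitochondrial aminoacyl-tRNA synthetases and the amidotransferase genes listed with them gave 0 calls among 20. Of these, 7 were positive in TPA and 16 in DMSO, with medians of -0.030 and 0.081, and 17 of 20 were lower in TPA than in DMSO. For HARS2, which charges the histidine tRNA, the authors' deposited table gave 0.23 in DMSO (unadjusted p = 0.0244), and for GATB 0.24 (unadjusted p = 0.0923). In TPA LARS2, for leucine, was at -0.23 and RARS2, for arginine, at 0.10 in the authors' deposited table. Genes of mitochondrial transcription and RNA processing gave 0 calls among 17 in TPA and 16 in DMSO, with medians of -0.0058 and 0.065. TFAM, which packages and transcribes mitochondrial DNA, was at 0.041 in TPA and 0.14 in DMSO, and the DNA polymerase gene POLG at 0.10 and 0.11, in the authors' deposited tables. GRSF1, of mitochondrial RNA granules, was at -0.20 in TPA, and KIAA0391, the nuclease of mitochondrial RNase P, at 0.22 in DMSO, in the authors' deposited tables.

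The rRNAs of the same ribosome lay outside the range of its proteins in DMSO, while in TPA only MT-RNR2 did. MT-RNR1, of the small subunit, was at 0.068 in TPA and 1.72 in DMSO in the authors' deposited tables (unadjusted p = 0.847 and 0.000297), and did not pass in DMSO with an adjusted p of 0.149 by the authors' adjustment. MT-RNR2, of the large subunit, was at 0.30 in TPA and 0.72 in DMSO in the authors' deposited tables (unadjusted p = 0.198 and 0.00352; adjusted p in DMSO 0.558). The libraries were poly(A)-selected, and the non-polyadenylated RN7SK was at -0.099 in TPA and 4.20 in DMSO in the authors' deposited tables (adjusted p = 1.00 and 0.0149); its part in the rRNA values was not tested. Over all 15 mitochondrially encoded RNAs the medians were 0.060 in TPA and -0.031 in DMSO, with 13 and 5 positive and 0 calls in each. For the mRNA MT-CO1 the authors' deposited table gave 0.084 in TPA.

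**Figure D4:**
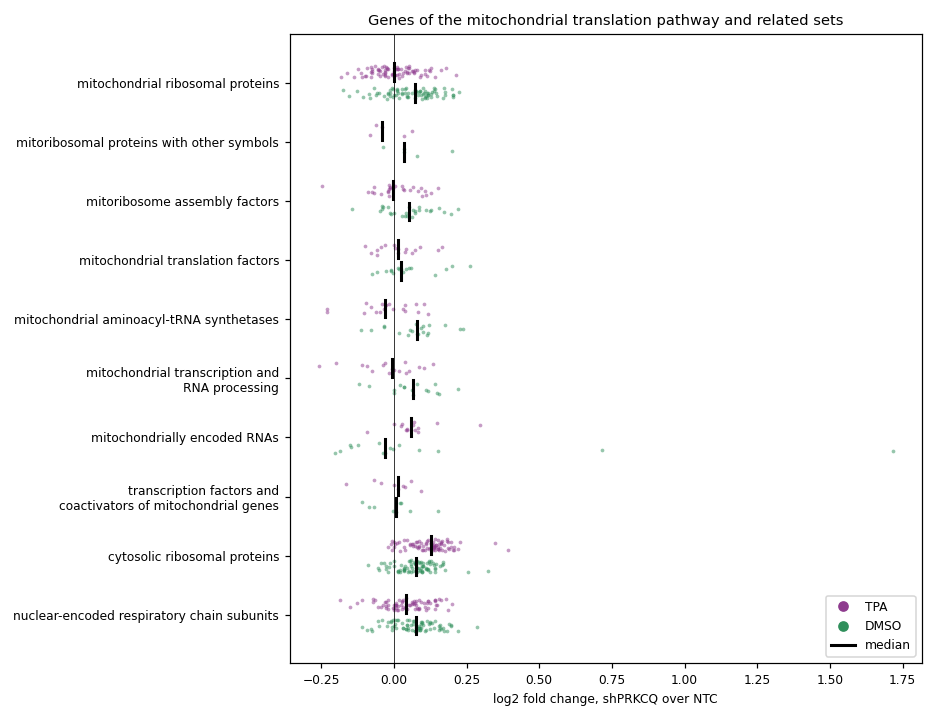
Log2 fold change, shPRKCQ over NTC, of single genes (points) in the family and in 9 related lists, with TPA above DMSO in each row and black bars for medians; the vertical position within a row is random. All but 2 points lie within 0.4 of zero; the exceptions are the rRNA genes MT-RNR1 and MT-RNR2 in DMSO, at 1.72 and 0.72.

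Cytosolic ribosomal proteins differed in sign from the mitochondrial ones when the treatments were compared. In DMSO both families had a like median, 0.072 for the mitochondrial and 0.077 for the cytosolic proteins. In TPA the mitochondrial family was at 0.0013 and the cytosolic at 0.13, with 79 of 84 cytosolic genes positive. TPA was below DMSO in 62 of 78 mitochondrial genes and in 8 of 83 cytosolic ones, with median differences of -0.051 and 0.049. Nuclear-encoded respiratory chain subunits, in which UQCRB was at 0.18 in TPA and 0.20 in DMSO, ATP5F1E at 0.16 in TPA and COX4I1 at 0.16 in DMSO in the authors' deposited tables, lay between. Their medians were 0.042 in TPA and 0.075 in DMSO, and TPA was below DMSO in 54 of 76. All these lists gave 0 calls in both treatments. Of the cytosolic genes the authors' deposited tables gave RPL17 at 0.21 in TPA and 0.18 in DMSO, and RPS4Y1 at 0.35 and 0.26. The contrast between the families rests on agreement between genes and not on the spread between libraries, and was not tested.

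**Figure D5:**
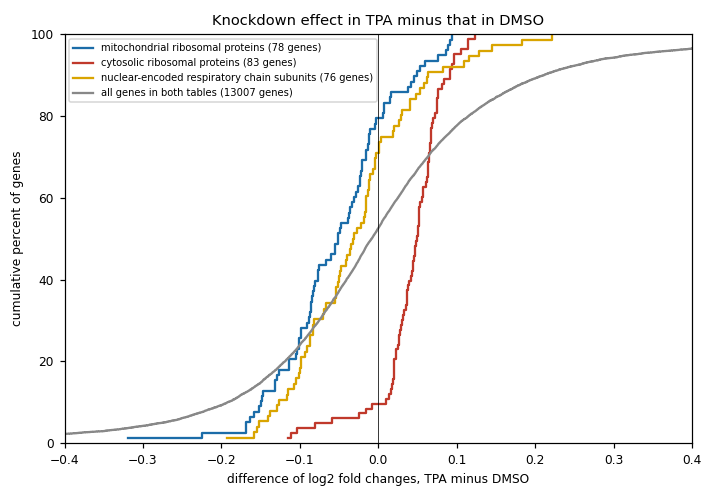
Cumulative share of genes, in percent, against the difference of log2 fold changes, TPA minus DMSO, for mitochondrial ribosomal proteins, cytosolic ribosomal proteins, nuclear-encoded respiratory chain subunits and all genes in both tables. At the median the mitochondrial curve lies left of that of all genes (-0.051 against -0.0084) and the cytosolic curve right of it (0.049). Both families spread less than all genes, so the curves cross in the tails. The lowest mitochondrial difference is -0.32 and the highest cytosolic one 0.12, where all genes reach -4.51 and 2.05.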

How the data were processed

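RNA of 24 libraries was sequenced from stranded, poly(A)-selected libraries with molecular identifiers, per the labels' protocols. STAR 2.5.3a, RSEM 1.3.0, DESeq2 1.18.1 and GRCh38 are listed in the submitters' processing notes, without their roles; the sources used here do not give the model formula or any shrinkage. The deposited columns are, per the file headers, the log2 fold change of each gene with a raw and an adjusted p-value. With TPA, 2910 genes share the log2 fold change 0.00054, so its deposited log2 values may be shrunken, and TPA and DMSO values may not be on 1 scale.

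From these, z-values (p-value and sign), implied errors (fold change over z) and the difference test between the tables (normal, two-sided, Benjamini-Hochberg adjusted over 13007 genes) were computed with pandas 2.3.3, scipy 1.17.1 and numpy 2.4.6 under Python 3.11.15. The difference test was tested on simulated fold changes drawn with exactly the implied errors, where its p-values are of the right size by construction. The deposited values spread less than those errors, so the simulation does not show how the test behaves on them. The p-values of this test take the tables as independent, and the labels do not say whether replicates were separate cultures. Coordinates, lengths and exons are from GENCODE release 29, whose identifiers matched all 78 genes; promoter windows are from RefSeq (GRCh38.p14). A duplicate GTPBP6 row on chromosome Y was dropped.

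Members and lists were chosen with earlier results of these data known. Named members are the 12 with the lowest p-value in each treatment, the 6 with the lowest p-value of the difference, and MRPS18A to C, MRPL58, MRPS36, MRPS30, MRPL12, MRPS12 and MRPL41; a few more are named for their place in the ribosome or genome. Of other lists, cell type markers apart, the 2 with the lowest p-value in each treatment are named, with the main regulators. MRPS28 was moved to the proteins with a bacterial counterpart after the data were seen. Alternatives changed thresholds, adjustment, summaries and membership.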

Additional observations from a re-analysis of the deposited data

How the results depend on the processing

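The counts of called members stayed at 0 in TPA and in DMSO under 7 alternatives each (adjusted p under 0.1 or 0.01, adjustment over every gene with a p-value or over genes in both tables, p-values rescaled by their robust SD, added members of other symbols, a minimum log2 fold change of 0.2), and the count of members that differ between TPA and DMSO stayed at 0 under 3. The family's median log2 fold change ran from -0.0095 to 0.0029 in TPA and from 0.044 to 0.073 in DMSO, and the median difference from -0.054 to -0.043, over 7, 7 and 6 alternatives; the TPA median turned negative only when the median of all genes was subtracted. Leaving out MRPS36, or the 4 members with a tested pseudogene or read-through row, was chosen after seeing the data. Counting MRPS28 as an addition gave small-subunit additions medians of -0.035 in TPA and -0.014 in DMSO.

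No paired analysis was possible because no per-library value was used; for the same reason no replicate was left out. With the depth unknown, its limits were not assessed, and precision is known only through the implied errors.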

Other observations

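Mitochondrial ribosomal protein genes have many processed copies in the genome, and reads can be split between a gene and its copies. Rows named for a member as a pseudogene, read-through or divergent transcript numbered 78 in the TPA table, 27 of them with a p-value and 7 with an adjusted p-value, and 3 in the DMSO table. In the authors' deposited tables MRPS31P5 was at 0.048 in TPA and 0.099 in DMSO, MRPS31P4 at -0.014 and -0.19, and MRPL45P2 at 0.082 and -0.12. Their parent genes MRPS31 and MRPL45 were at 0.029 and -0.020 in TPA and at 0.11 and -0.034 in DMSO in the authors' deposited tables. From the authors' deposited table with TPA, of rows tested there alone, MRPL3P1 was at -0.30, MRPL45P1 at -0.030, URGCP-MRPS24 at 0.10 and MRPS30-DT, which starts beside MRPS30 on the other strand, at 0.38 (unadjusted p = 0.448, 0.942, 0.810 and 0.234). The values of MRPS31, MRPL45, MRPL3 and MRPS24 are uncertain to the extent that reads were shared.

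The files give fold changes of cell type markers and no levels. Of 6 T cell markers 6 were tested in TPA and 2 in DMSO, with 0 calls in each and medians of 0.17 and 0.083. B cell markers had 2 genes tested in TPA and 1 in DMSO, and myeloid markers 1 in each, with 0 calls; epithelial markers had 2 in TPA and 0 in DMSO, also with 0 calls. The markers with an unadjusted p under 0.05 were CD5, of T cells, and the epithelial KRT5, both in TPA. In the authors' deposited table CD5 was at 0.56 and KRT5 at 0.77 (unadjusted p = 0.0167 and 0.0437).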
